A study of Mus musculus with 6 samples.

Results

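Aggregation with retinoic acid was followed in 1 line of mouse P19 cells that expresses AICD, by setting its aggregated array against its undifferentiated array, 2 of the 6 arrays of the series. P19 is an embryonal carcinoma line that grows as undifferentiated cells and forms neurons and glia when it is aggregated with retinoic acid. AICD is the tail that gamma-secretase cuts from the amyloid precursor protein, App, into the cytoplasm. The aggregated AICD cells had been kept as aggregates for 4 days with 0.5 µM all-trans-retinoic acid, and the undifferentiated AICD cells had received neither. The control line, pCDNA/P19 (called the vector line here), carries the empty vector and was sampled aggregated and undifferentiated in the same way; a differentiated state, 2 days after replating of aggregates, completes both lines. The labels do not give the promoter of the transgene or the number of clones, so each line may be 1 clone.

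Retinoic acid binds nuclear receptors of the RAR and RXR families, which sit on direct repeats in target genes, among them the receptor Rarb, the degrading enzyme Cyp26a1 and the 3′ Hox genes. In embryonal carcinoma cells it is known to switch off the pluripotency network built around Oct4 and Sox2, and with aggregation it starts a neural programme in which proneural factors precede cytoskeletal and synaptic genes. Hox genes are arranged in clusters in which the 3′ genes, of low group number, respond to retinoic acid before the 5′ genes in embryonal carcinoma cells.

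Each state of the line is 1 array, so differences are given as sizes, with no test and no replicate error. Each value is a normalized log2 signal, in which 0 is the 75th percentile of the spots on that array, and each difference is aggregated minus undifferentiated. The 75th percentile was 607 on the aggregated and 622 on the undifferentiated array, and 62.0% and 64.3% of their spots were well above background, with 0 saturated spots. Both undifferentiated arrays of the series lie on 1 slide and the other 4 arrays on another, so slide and state cannot be told apart. The scatter between repeat spots would give a difference an SD of 0.137, and the probes of a gene differed with a median SD of 0.193; both leave out the spread between cultures. A gene well above background on 1 of the 2 arrays alone is given as a lower bound, the lit array over the lowest signal measurable on the dim one, and written as at least N-fold.

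Of 17178 genes with a probe, 13290 were well above background on 1 or both of the AICD arrays: 11867 on both, 408 on the aggregated array alone and 1015 on the undifferentiated array alone. At least 2-fold higher in aggregated cells were 1529 genes (11.5%), and at least 2-fold lower 2484 (18.7%). Counts within the gene lists below are to be read beside these shares over all genes described. At least 10-fold higher were 205 (1.54%) and at least 10-fold lower 150 (1.13%), so on this scaling increases outnumbered decreases past 10-fold but not past 2-fold. The median difference was -0.23, and the 5th and 95th percentiles were -1.76 and 1.65. When the arrays were scaled on the 7 E1A spike-in probes, which were 0.29 higher on the aggregated array (0.19 to 0.34), the median became -0.52 and the counts 1119 higher and 3811 lower, so that higher genes made up 22.7% of those past 2-fold in place of 38.1%; quantile normalization gave a median of -0.09. Differences between 1 and 1.29 therefore fall under 2-fold with spike-in scaling.

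**Figure D1:**
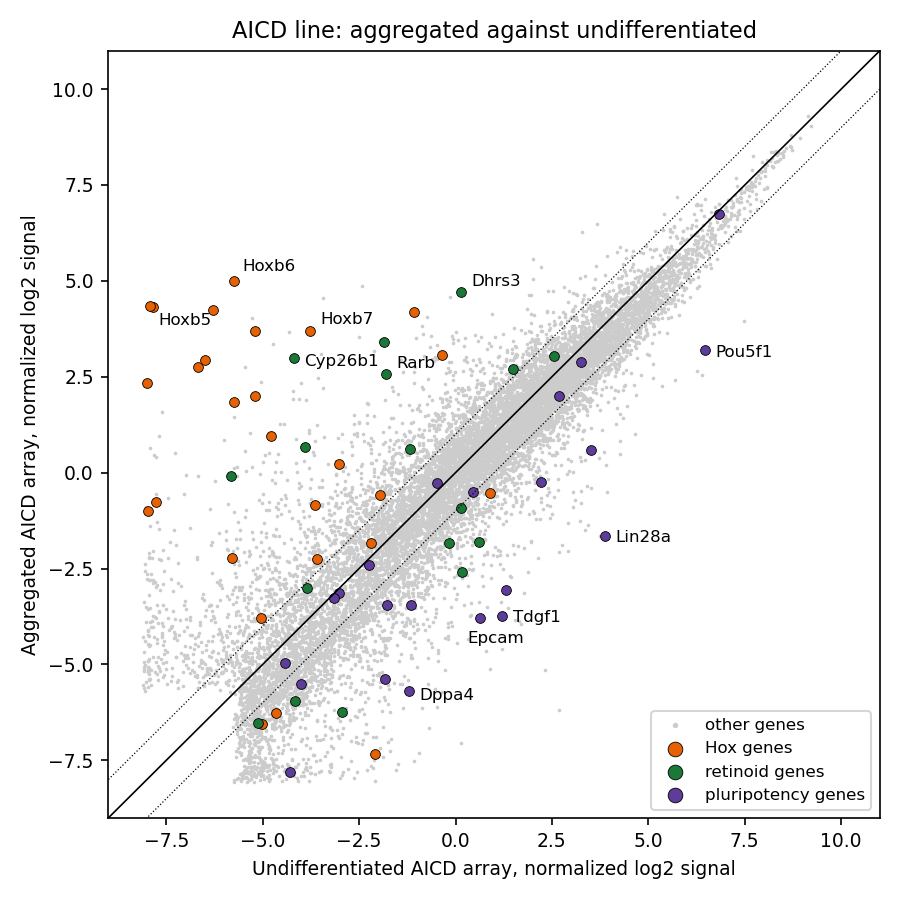
Normalized log2 signal of 13290 genes on the aggregated AICD array (vertical axis) and the undifferentiated AICD array (horizontal axis), 1 point per gene; the solid line marks equal signal and the dotted lines 2-fold. Hox genes such as Hoxb6 and Hoxb7 and retinoid genes such as Cyp26b1 and Rarb lie far above the line, pluripotency genes such as Pou5f1, Lin28a and Tdgf1 below it. Points under about -5.7 on an axis are not well above background on that array.

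The markers of the labelled cell type were present before aggregation and those of neural cells after it. Of 5 embryonal carcinoma markers with a probe, 5 were well above background on the undifferentiated array and 4 on the aggregated array (Dppa4 was dim there), and their summed linear signal, in units of the 75th percentile, was 17 aggregated against 116 undifferentiated. The 5 neural progenitor markers summed to 66.7 aggregated against 19.5 undifferentiated, and the 5 neuron markers to 62.8 against 11.7, all 10 well above background on both arrays. Neuron marker signal was thus present in undifferentiated cells too, with Tubb3 at 2.53 and Stmn2 at 2.22 there. Glial Gfap and Aqp4 were dim on both arrays, as were endothelial Pecam1 and Cdh5, leukocyte Ptprc, mesenchymal Lum, muscle Tnnt2 and Myod1, endodermal Ttr and Foxa2, and trophoblast Elf5 and Gcm1. In bulk RNA, fewer cells of a type and less RNA per cell cannot be told apart, here and in all values that follow.

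Among retinoid genes, carriers and degrading enzymes were higher in aggregated cells, while most genes of synthesis and uptake were lower. Rarb, the receptor gene that retinoic acid induces, had a signal of 2.58 in aggregated against -1.81 in undifferentiated cells, a log2 difference of 4.39. Cyp26a1, a cytochrome P450 that breaks down retinoic acid, had 0.66 against -3.92 in undifferentiated cells (4.57). Both genes carry a direct repeat of retinoic acid half-sites spaced by 5 bases (DR5) close to their start, and their promoters are shown for that reason. Each runs 5′ to 3′ on the gene's own strand from 250 bases before the RefSeq start to 50 after it (GRCm38.p6; Rarb at chr14:16575427-16575726, minus strand, and Cyp26a1 at chr19:37697558-37697857, plus strand), with the DR5 in capitals.
Rarb: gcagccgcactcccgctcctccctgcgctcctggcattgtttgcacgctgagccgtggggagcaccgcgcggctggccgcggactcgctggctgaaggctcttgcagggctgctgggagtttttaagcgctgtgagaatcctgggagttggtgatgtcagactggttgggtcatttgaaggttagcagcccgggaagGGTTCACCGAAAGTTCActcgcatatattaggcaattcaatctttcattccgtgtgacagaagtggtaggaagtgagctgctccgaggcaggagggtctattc
Cyp26a1: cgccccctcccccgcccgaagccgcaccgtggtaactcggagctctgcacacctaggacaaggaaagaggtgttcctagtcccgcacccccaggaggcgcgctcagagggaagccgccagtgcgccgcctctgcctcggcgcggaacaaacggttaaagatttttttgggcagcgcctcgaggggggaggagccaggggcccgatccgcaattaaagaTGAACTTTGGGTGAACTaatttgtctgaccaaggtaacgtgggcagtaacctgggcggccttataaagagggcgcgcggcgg
The DR5 of Rarb spans bases -53 to -37 and reads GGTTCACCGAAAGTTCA on the gene's strand. That of Cyp26a1 spans -32 to -16 and lies on the opposite strand, where it reads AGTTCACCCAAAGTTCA. The search took the half-site AGGTCA and its variants, which are AGTTCA, then GGGTCA and also GGTTCA, in any pairing, on both strands, spaced by 5 bases (DR5) or 2 bases (DR2). Of 32851 RefSeq promoters of this length, 32 held a DR5 (0.0974%) and 88 a DR2 (0.268%). The sets below are drawn from described genes, of whose 13540 promoters 6 held a DR5 (0.0443%) and 11 a DR2 (0.0812%). Among the 188 promoters of genes at least 10-fold higher in aggregated AICD cells, 2 held a DR5 (1.06%), those of Rarb and Cyp26a1, and 0 held a DR2. Among 1543 promoters of genes at least 2-fold higher 2 held a DR5 and 2 a DR2, and among 2424 of genes at least 2-fold lower 1 held a DR5 and 2 a DR2. A match is a description of these letters and not of binding.

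Cyp26b1, the second retinoic acid hydroxylase, had the largest difference of the retinoid genes detected on both arrays, with a signal of 2.99 in aggregated against -4.18 in undifferentiated cells (7.18). Dhrs3, which turns retinaldehyde back to retinol, had 4.70 aggregated against 0.14 undifferentiated (4.56). The carriers of retinoic acid itself were higher as well. Crabp1 had -0.09 in aggregated cells and was dim in undifferentiated cells, at least 51.7-fold higher, and Crabp2 had 0.61 against -1.18 undifferentiated (1.79). Genes of synthesis and uptake were lower: Rdh10, which oxidizes retinol, had -1.80 aggregated against 0.62 undifferentiated (-2.42), and Aldh1a1, a retinaldehyde dehydrogenase, -1.83 against -0.16 (-1.67). Aldh1a3 was at least 2.98-fold lower, and the retinol importer Stra6 differed by -1.07. In all, 6 of the 11 described genes of synthesis, transport and breakdown were at least 2-fold higher and 4 lower, with a median difference of 1.79 that became 3.18 with detection on both arrays and 0.04 with no filter on dim probes. Receptors moved in both directions: Rarb and Rxra (1.21) were higher, Rxrg (-2.78) and Rarg (at least 6.97-fold lower; -0.64 on another probe) were lower, and Rara (0.83) and Rxrb (0.50) stayed under 2-fold.

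Hox genes, which encode the homeodomain factors that pattern the hindbrain and trunk, held most of the largest increases by bound. Of 13 described genes of groups 1 to 5, 12 were at least 2-fold higher, 11 of them past 10-fold, with 0 lower and a median of 7.58 (3.45 over those detected on both arrays). Of 14 described genes of groups 6 to 13, 10 were at least 2-fold higher and 3 lower, with a median of 2.32. Hoxb4 had 1.83 in aggregated against -5.75 in undifferentiated cells (7.58), and Hoxb3 had 2.01 against -5.21 (7.21, and 9.03 on another probe). Hoxb2, Hoxb5, Hoxb6 and Hoxb8 were dim before aggregation. Hoxb6 had 5.00 in aggregated cells and was at least 1721-fold higher. Hoxb5, at 4.34 in aggregated cells, was at least 1112-fold higher, and Hoxb2, at 4.31, at least 1088-fold. Hoxb8 had 4.24 in aggregated cells and was at least 1036-fold higher, while another of its probes gave 1.57 on the log2 scale.

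In the Hoxa cluster, Hoxa5 (at least 423-fold), Hoxa4 (at least 370-fold, 3.49 on another probe) and Hoxa2 (at least 277-fold) were higher, each dim in undifferentiated cells. Hoxa3 stood apart with a difference of 0.35 on the probe used, against 5.56 on another. Hoxb7 had 3.70 aggregated against -3.78 undifferentiated (7.48), and Hoxb9, a 5′ neighbour, 4.20 against -1.09 (5.29). Hoxa7 (5.73), Hoxa9 (3.25), Hoxc9 (at least 27.4-fold) and Hoxc5 (at least 32.4-fold) were also higher. In the Hoxd cluster the differences were 2.80 for Hoxd1, 3.41 for Hoxd4, 1.38 for Hoxd8 and 1.26 for Hoxd9, and at least 11.7-fold for Hoxd3 (0.14 on another probe). The most 5′ genes were not higher. Hoxb13 had -0.53 aggregated against 0.88 undifferentiated (-1.41), Hoxd13 was at least 12.6-fold lower and Hoxd10 at least 2.14-fold lower. Hoxa10, Hoxa11, Hoxa13, Hoxc10, Hoxc12, Hoxc13 and Hoxd11 were dim on both arrays, and so was Hoxb1.

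**Figure D2:**
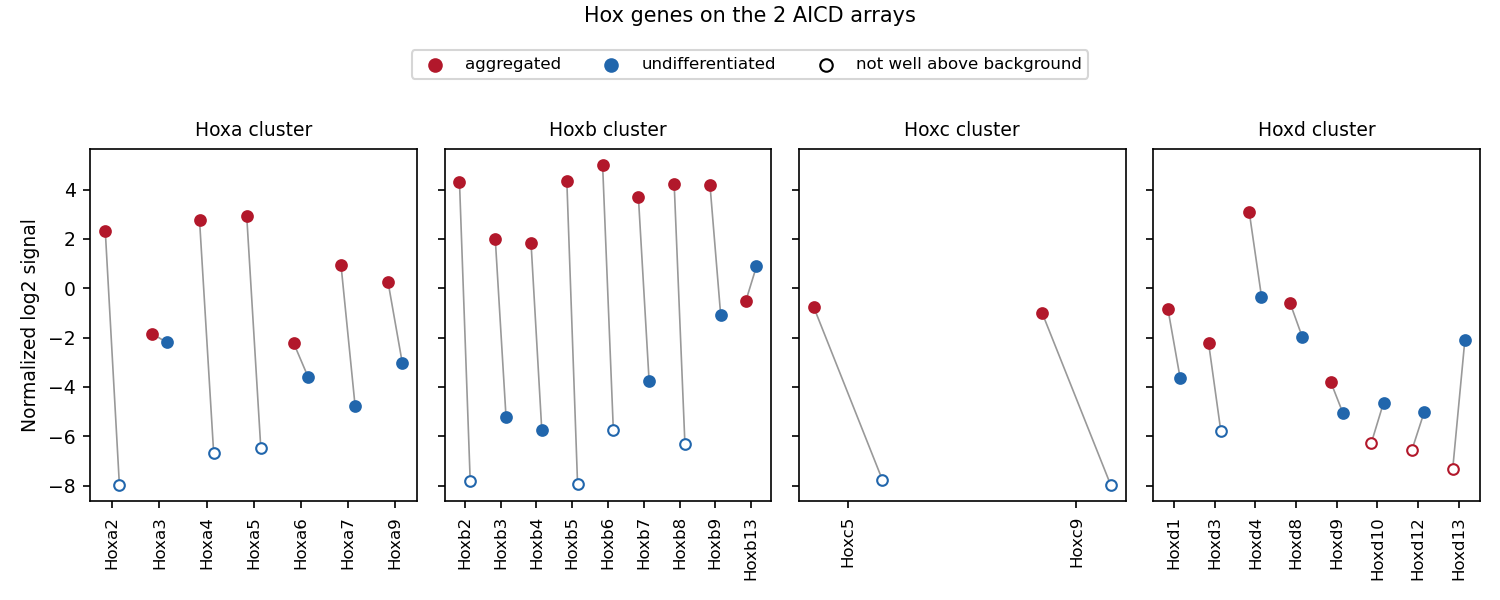
Normalized log2 signal of described Hox genes on the aggregated (red, left of each pair) and undifferentiated (blue, right) AICD arrays, by cluster and in the order of group number; open circles are not well above background and lines join the arrays of 1 gene. Hoxb2 to Hoxb9 lie between 1.83 and 5.00 in aggregated cells, and the genes of groups 10 to 13 lie lower in aggregated than in undifferentiated cells.

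Cofactors that bind DNA with Hox proteins followed in part: 7 of 10 described were at least 2-fold higher and 0 lower. Meis1 had 1.41 in aggregated against -1.61 in undifferentiated cells (3.02), and Meis2 had 4.63 against 1.96 (2.67). Pbx2 (0.37), a partner that many cells express, differed by less than 2-fold. Cdx2, a homeobox gene that acts on the trunk Hox genes, had -1.45 in aggregated cells and was at least 20.1-fold higher.

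Pluripotency genes were lower in aggregated cells or differed by less than 2-fold. Of 22 described members, 13 were at least 2-fold lower, 6 of them at least 10-fold, and 0 were at least 2-fold higher, with a median of -1.58. Lin28a, an RNA-binding protein that blocks maturation of let-7 microRNAs, had -1.64 in aggregated against 3.88 in undifferentiated cells (-5.52). Tdgf1, the Nodal co-receptor Cripto, had -3.74 against 1.21 (-4.95), and Utf1, a chromatin factor of embryonic stem cells, -3.05 against 1.30 (-4.35). Losses were thus large for these 3 genes. Epcam (-4.41), Eras (-3.55), Sall4 (-2.91; -1.47 on another probe) and Otx2 (-2.46) were also lower, and Dppa4 was at least 22.7-fold lower. Pou5f1, which encodes Oct4, was lower by a smaller step: it had 3.19 in aggregated against 6.48 in undifferentiated cells (-3.29), so the aggregated signal was still above the array's 75th percentile. Sox2, which neural progenitors share with pluripotent cells, had 2.89 against 3.25 (-0.36). Nr0b1, a nuclear receptor of the Oct4 network, had 2.00 against 2.68 (-0.68). Klf4 (-0.95), Klf5 (-0.11), Klf2 (-0.10; -2.09 on another probe), Esrrb (-0.14) and Tbx3 (0.22) were under 2-fold as well. With normexp background correction, which draws dim signals together, the median of the list was -0.85.

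Genes of Nodal signalling, which keeps primed pluripotent cells and induces mesoderm and endoderm, were at least 2-fold lower in 7 of 15 described and higher in 4. Cfc1, the second Nodal co-receptor, had -1.66 in aggregated against 4.95 in undifferentiated cells (-6.61). Gdf3, a ligand of the same receptors, had 0.82 against 4.26 (-3.44), and the antagonist Lefty1 had 1.84 against 3.46 (-1.62). Receptors and Smads had smaller steps than Cfc1 and Gdf3. Acvr2a (1.16), Acvr2b (1.09) and Smad3 (1.09; -0.27 on another probe) were just past 2-fold higher, Smad2 had -0.48 and Smad4 0.16. The inhibitory Smad7 (-1.88) and the nuclear partner Foxh1 (-1.35) were lower, and Gdf1, a partner ligand of Nodal, was higher (1.76). Among DNA methylation genes the de novo enzyme Dnmt3b stood out, with 0.49 in aggregated against 4.27 in undifferentiated cells (-3.78). Its cofactor Dnmt3l was also lower (-1.80), the maintenance enzyme Dnmt1 had 0.32, and the dioxygenase gene Tet2 (1.88) was higher.

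Several of these genes were lower by a larger step in the vector line, whose 2 arrays lie on the same slides as their AICD counterparts. In vector cells Pou5f1 had -2.40 aggregated against 6.37 undifferentiated (-8.77), so the AICD step of -3.29 was smaller by 5.48 on the log2 scale. For Gdf3 the steps were -3.44 in AICD and -8.49 in vector cells, for Nr0b1 -0.68 and -6.54, for Fgf5 -1.68 and -7.23, for Lefty1 -1.62 and -5.85, and for Otx2 -2.46 and -6.65. The undifferentiated signals of Pou5f1 were close, 6.48 in AICD and 6.37 in vector cells, so its gap lies in the aggregated arrays. Fgf5 instead began at -1.78 in AICD and 2.26 in vector cells and ended at -3.46 and -4.97, so most of its gap lay in the starting state. The larger vector step did not extend to every member: the steps of Cfc1 were -6.61 and -6.76, those of Tdgf1 -4.95 and -5.68, and those of Sox2 -0.36 in both lines. The median of the pluripotency list was -1.58 in AICD and -2.96 in vector cells, while the median of the gene-by-gene step differences was 0.68 (18 genes on all 4 arrays). Members of the list were admitted by detection on the AICD arrays alone. With 1 array for each of the 4 groups, 0 residual degrees of freedom remain, and no difference between the lines' steps could be tested.

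**Figure D3:**
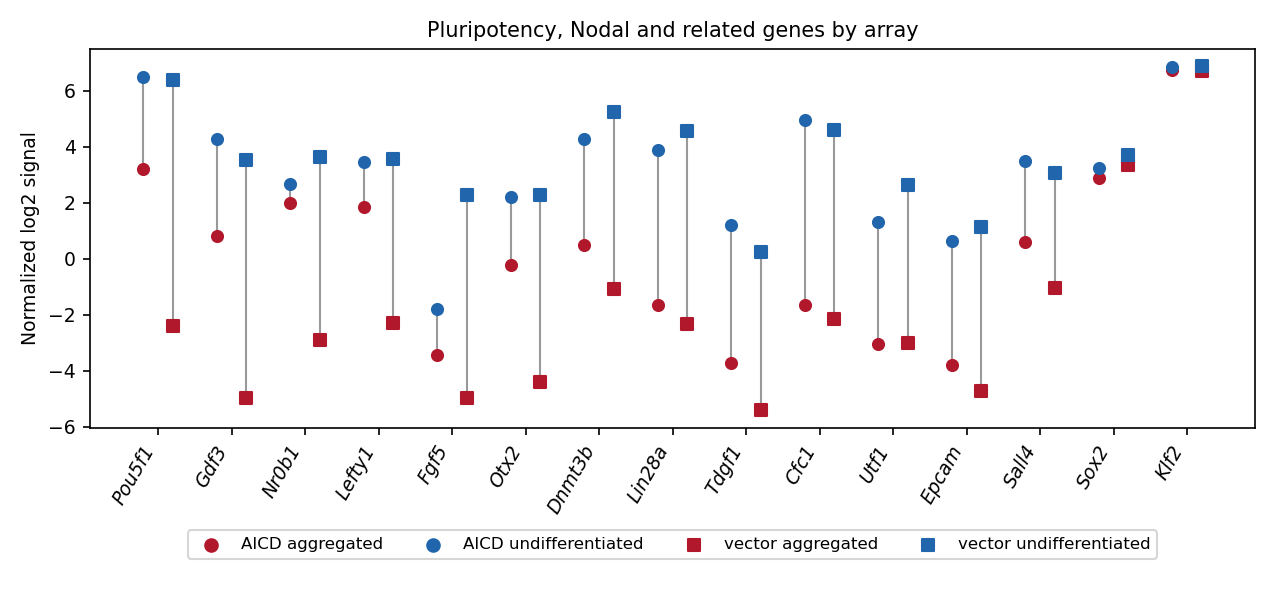
Normalized log2 signal of 15 pluripotency, Nodal and related genes on the aggregated (red) and undifferentiated (blue) arrays of the AICD line (circles) and the vector line (squares), with lines joining the arrays of 1 line. Pou5f1, Gdf3, Nr0b1 and Lefty1 end higher in aggregated AICD than in aggregated vector cells, while Cfc1 and Sox2 end at similar signals. Undifferentiated signals in AICD and vector cells are 6.48 and 6.37 for Pou5f1, 4.26 and 3.52 for Gdf3, and 2.68 and 3.64 for Nr0b1.

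Neural progenitor genes were higher in part. Of 21 described, 8 were at least 2-fold higher and 3 lower, with a median of 0.44 beside -0.27 for all genes described. Fabp7, the brain fatty acid binding protein of radial glia, had 4.86 in aggregated against -2.41 in undifferentiated cells (7.28). Nr2e1, an orphan nuclear receptor that maintains neural stem cells, had 0.05 against -5.44 (5.50), Sox9 had 0.94 against -3.42 (4.36; 1.74 to 4.52 over its probes) and Sox21 0.32 against -3.93 (4.25). These 4 genes passed 10-fold. Markers that P19 cells carried before aggregation moved less: Nes (nestin) had 4.27 against 3.60 (0.67), Vim 6.28 against 5.62 (0.66) and Cdh2 1.67 in both states (0.00). Sox1 (1.35), Zic1 (1.38) and Pax6 (1.04) were between 2-fold and 3-fold higher, and Msi1 (-1.02), Slc1a3 (-1.04) and Lix1 (-4.15) were lower.

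Factors that divide the neural tube along its dorsal and ventral axis were mostly higher, and those that were are expressed in dorsal and intermediate domains. Of 18 described, 10 were at least 2-fold higher and 3 lower, with a median of 1.97 that became 0.85 with normexp, 1.08 with detection on both arrays and 0.26 with no filter on dim probes. Dbx1, which marks interneuron progenitors at the middle of the neural tube, had 4.56 in aggregated against -3.45 in undifferentiated cells (8.01). Pax3, a dorsal factor, had 0.45 in aggregated cells and was at least 75.3-fold higher, and Irx5 had 0.46 against -4.94 (5.39). Irx3 (at least 18.3-fold), Gsx2 (at least 13.9-fold), Pax7 (at least 4.65-fold), Wnt1 (2.76), Msx1 (2.22), Olig3 (2.02) and Msx2 (1.92) completed the higher members. On the ventral side, Shh, Foxa2 and Nkx2-2 were dim on both arrays, Nkx6-1 had -1.43 against -1.67 (0.23), and Olig2 was at least 1.78-fold higher. Nkx6-2, a ventral progenitor factor, was the largest loss, with -1.25 in aggregated against 3.21 in undifferentiated cells (-4.47). Bmp4 (-1.30) and Gsx1 (-1.19) were lower by less.

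Neuronal transcription factors were mostly higher in aggregated cells. Of 33 described, 25 were at least 2-fold higher, 15 of them past 10-fold, 3 were lower, and the median was 3.13 (1.62 with normexp background correction and 1.61 over those detected on both arrays). Neurog2, a proneural gene that commits progenitors, had -0.20 in aggregated against -4.76 in undifferentiated cells (4.55). Neurog1 was 1.03 and Neurog3 0.01 apart. Several factors that follow the proneural genes were dim before aggregation. Nhlh1 had 1.57 in aggregated cells and was at least 164-fold higher, Myt1 0.86 and at least 99.8-fold, St18 -0.56 and at least 37.3-fold, and Myt1l -1.48 and at least 19.7-fold. Neurod1 was at least 8.75-fold and Neurod4 at least 7.50-fold higher, while Neurod2 had 0.39.

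Factors of neuronal subtypes were divided. Onecut2 had 2.12 in aggregated against -4.21 in undifferentiated cells (6.33; 4.71 to 6.38 over its probes) and Onecut1 0.54 against -3.69 (4.23). Lhx5 (3.81) and Lhx1 (3.49), of spinal and hindbrain interneurons, Ebf3 (4.35; 1.42 on another probe) and Ebf2 (2.95) were higher. Ptf1a (at least 17-fold) and Tlx3 (at least 15.8-fold), which direct inhibitory and excitatory dorsal interneurons, were higher too. Of the motor neuron factors, Mnx1 (1.61), Isl2 (0.59) and Lhx3 (0.16) moved less. Isl1 was at least 4.41-fold higher, a bound that leaves its size open. En1 was at least 4.68-fold lower, Phox2a had -1.39, and Pou4f1 had -1.17 on the probe used and 2.86 on another. Atoh1, Pou4f2 and Neurod6 were dim on both arrays.

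Cytoskeletal and RNA-binding genes of neurons were higher almost throughout, 20 of 24 described, with 1 lower and a median of 2.30. Dcx (doublecortin), a microtubule protein of migrating neurons, had 3.36 in aggregated against -4.73 in undifferentiated cells (8.08; 4.49 on another probe). Celf3, an RNA-binding splicing factor, had 3.68 against -4.33 (8.0). Mapt, which encodes tau, had 1.89 against -3.88 (5.77; 4.36 to 5.88 over its probes), and Map2 had 3.43 against -1.95 (5.38). The tubulin genes had higher undifferentiated signals and smaller steps: Tubb3 had 4.74 against 2.53 (2.21) and Tubb2b 5.64 against 3.93 (1.71). The Elav-like family showed 3.65 for Elavl3, 3.45 for Elavl4 and 0.85 for Elavl2. The neurofilament genes Nefl (2.39) and Nefm (1.88) were higher and Nefh (-1.95) was lower. Gap43, a growth cone protein, had 0.63 against 0.59 (0.04), and Stmn2 1.64 against 2.22 (-0.58).

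Genes of the synapse and of secretory granules were higher in 17 of 25 described and lower in 3, with a median of 1.41. The granule proteins led. Chgb had 3.10 in aggregated against -3.50 in undifferentiated cells (6.60), Scg5 had 1.12 against -3.80 (4.92) and Scg3 1.29 against -2.51 (3.80). Syp, the vesicle protein synaptophysin, had -1.02 in aggregated cells and was at least 26.7-fold higher. The fusion machinery gave smaller values: Vamp2 had 1.89, Rab3a 1.90, Stx1a 1.41 and Syt1 1.25. Snap25, at -5.33 in aggregated cells, was at least 1.36-fold higher, a bound that leaves its size open. Syn1 (-0.84), Gng3 (-1.40) and Nlgn3 (-1.48) had negative differences.

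Of 22 described genes of neurotransmitter systems, 10 were at least 2-fold higher and 5 lower. Slc17a6, the vesicular glutamate transporter of many hindbrain and spinal neurons, had -0.98 in aggregated against -5.43 in undifferentiated cells (4.45; 3.0 on another probe). Chrnb2, a nicotinic receptor subunit, had -1.17 against -5.46 (4.29). Chrna3 (at least 13.3-fold) and the glutamate receptor genes Gria2 (at least 11.5-fold) and Gria1 (3.10; 0.93 on another probe) were also higher. GABA genes were higher by less, Slc32a1 by 1.83 and Gad2 by 1.54, while Gad1 was dim on both arrays. Genes of cholinergic neurons were not higher: Chat was dim in aggregated cells (at least 1.48-fold lower) and Slc18a3 was at least 2.28-fold lower. The cortical glutamate transporter Slc17a7 (-2.93) and Ddc (-2.02; 0.26 on another probe) were lower. Among voltage-gated channels 10 of 22 were at least 2-fold higher and 2 lower, with Cacna2d1 at 3.37, Cacna1g at 2.76 and Scn8a at 2.48. Of the 22, 12 were well above background on both arrays, and the list median of 0.67 became 0.18 with detection on both arrays. Scn1a (at least 6.15-fold) and Scn3a (at least 7.12-fold) were also higher, and Kcna1 at least 2.44-fold lower.

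Axon guidance receptors and adhesion proteins were higher in 25 of 35 described and lower in 2, with a median of 1.72. Dcc, the netrin receptor of commissural axons, had 0.40 in aggregated cells and was at least 72.7-fold higher, and its ligand Ntn1 had -1.44 against -4.04 in undifferentiated cells (2.60). Unc5c, a netrin receptor for repulsion, was at least 14.5-fold higher. The slit receptors Robo1 (1.72) and Robo2 (at least 6.62-fold) and the ligands Slit2 (1.14) and Slit3 (2.19) were higher, and Slit1 had -0.48. Cntn2 (at least 19-fold), Cntn1 (3.65), Plxna2 (3.22) and Nrp2 (2.75) rank next among the members. Ncam1 had 4.12 in aggregated against 2.04 in undifferentiated cells (2.08), with -0.93 on another probe. Sema3a (-1.21) and Sema3c (-1.62), secreted repellents, were lower.

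**Figure D4:**
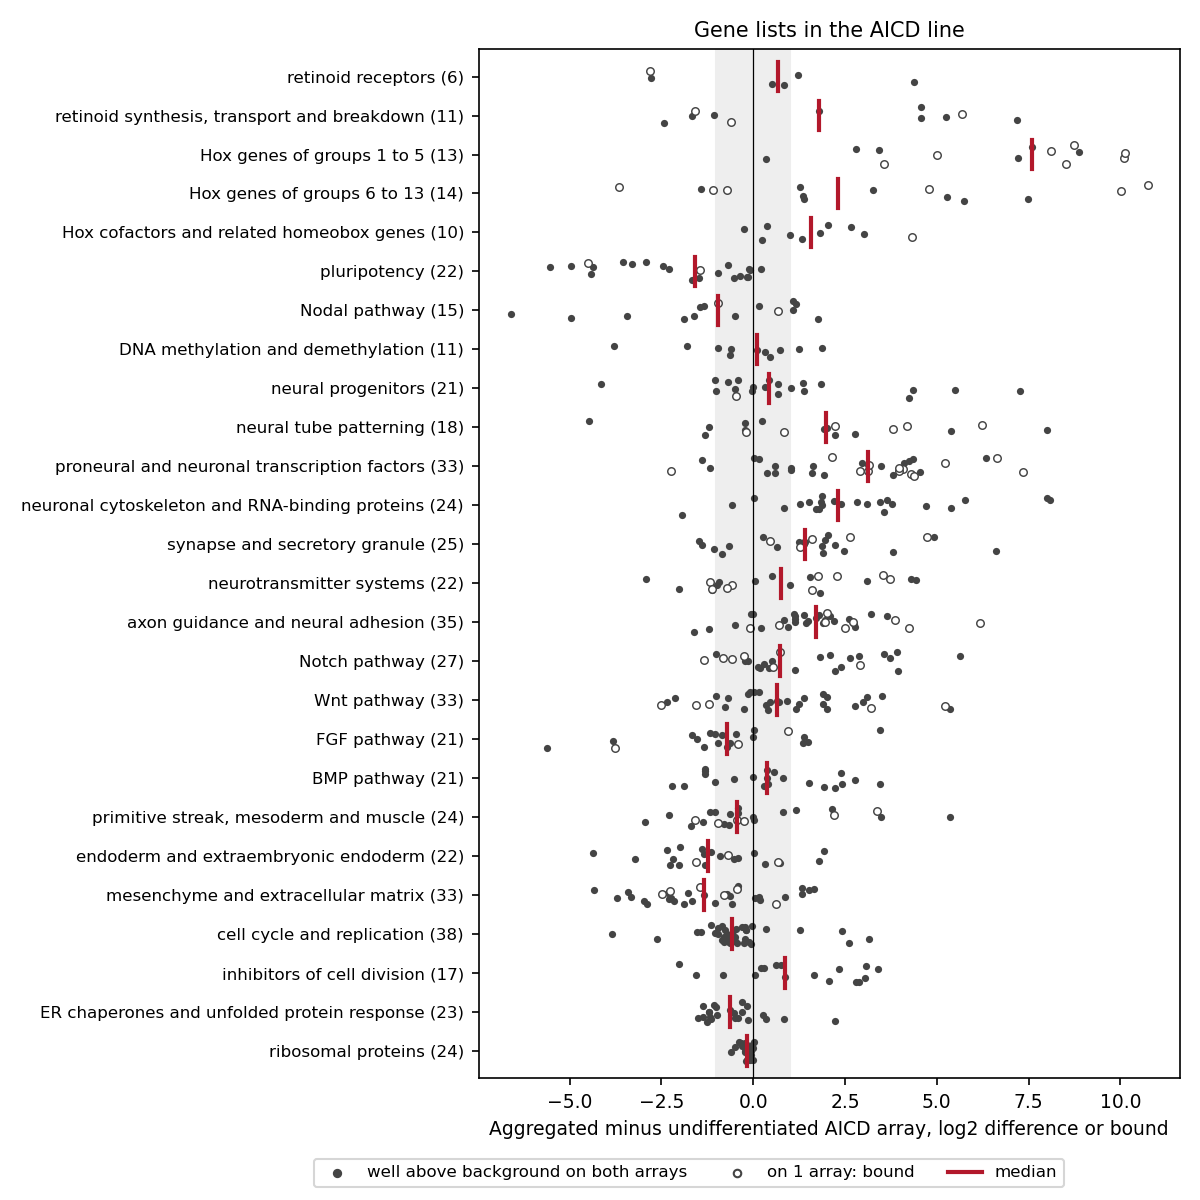
Log2 difference between the aggregated and undifferentiated AICD arrays for the members of 26 gene lists (number described in brackets); filled points were well above background on both arrays, open points are bounds, red bars are medians and the grey band marks less than 2-fold. The lists of 3′ Hox genes (median 7.58) and of neuronal transcription factors (3.13) lie to the right and those of pluripotency (-1.58) and mesenchyme (-1.33) to the left, while ribosomal proteins stay within 2-fold.

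In the Notch pathway, through which neighbouring cells hold each other back from neurogenesis, several ligands, modulators and feedback genes were higher and some targets were not. Of 27 described, 13 were at least 2-fold higher and 2 lower. The ligand Dll1 had 2.87 in aggregated against 0.63 in undifferentiated cells (2.24), Dll3 had 1.89 against -1.83 (3.72), and Dll4 was at least 7.49-fold higher. Notch1 had 0.13 against -3.79 (3.92), whereas Notch2 (-0.23), Notch3 (0.30) and Notch4 (0.50) were under 2-fold. The glycosyltransferases Mfng (5.63) and Lfng (2.09) and the feedback inhibitor Nrarp (3.94) were higher. Targets differed among themselves. Hes1 had -0.83 against -3.45 (2.62), Hey1 3.30 against 0.91 (2.38) and Hes3 -1.95 against -4.83 (2.88). Hes5, a main Notch target in neural progenitors, was not well above background in aggregated AICD cells (-5.63) and had -5.06 in undifferentiated cells, at least 1.49-fold lower. In vector cells Hes5 had 5.94 aggregated against -1.93 undifferentiated (7.87), so the lines stood apart for this target in both states. Steps of the ligands were alike in size in both lines, 2.24 in AICD and 3.04 in vector cells for Dll1 and 3.72 and 3.11 for Dll3.

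Several Wnt ligands and targets were higher, and 2 of the Tcf factors were lower. Wnt3 had 0.52 in aggregated against -4.82 in undifferentiated cells (5.35), Wnt4 -0.78 against -3.78 (3.0), and Wnt8a was at least 9.23-fold higher. The target Sp5 had -0.56 in aggregated cells and was at least 37.3-fold higher, Lgr5 had 3.51, Nkd1 2.00 and Axin2 1.91. Tcf7l1, a repressor in pluripotent cells, had 1.84 against 3.97 (-2.12) and Tcf7 -1.59 against 0.75 (-2.34). Altogether 14 of 33 were at least 2-fold higher and 6 lower. FGF genes leaned the other way, with 4 of 21 higher and 8 lower and a median of -0.72. The effectors Etv5 (-3.81), Spry4 (at least 13.6-fold lower), Etv4 (-1.52) and Spry2 (-1.35) were lower, as was the carrier Fgfbp1, with -4.22 in aggregated against 1.39 in undifferentiated cells (-5.62). Receptors were higher for Fgfr3 (1.49) and Fgfr2 (1.35; 0.93 to 2.19 over its probes) and not for Fgfr1 (-0.85).

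BMP genes were split, 7 of 21 higher and 6 lower, beside 11.5% higher and 18.7% lower over all genes. Bmpr1b had -1.07 in aggregated against -4.53 in undifferentiated cells (3.46), and Bmp7 had 2.61 against -0.17 (2.79). The target Id3 was higher (2.41) and Id1 lower (-1.32), and the antagonists Fst (-1.89), Nog (-1.32) and Chrd (-1.04) were all lower. The pseudoreceptor Bambi had 1.12 against 3.33 (-2.21).

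Genes of other germ layers were mostly lower or dim. Endoderm genes were at least 2-fold lower in 12 of 22 described and higher in 2, with a median of -1.24: the laminin chain Lamb1 had -2.23 in aggregated against 2.14 in undifferentiated cells (-4.37), Sparc 2.54 against 4.81 (-2.27), and Hnf4a (-1.38) and Sox17 (-1.16) were lower, while the chemokine receptor Cxcr4 (1.94) and Lama1 (1.80) were higher. Mesenchyme and matrix genes were lower in 18 of 33 and higher in 4, with a median of -1.33. With normexp background correction this median was -0.65 and that of the endoderm genes -0.49, both under 2-fold. Spp1 (osteopontin) had -3.49 against 0.83 (-4.32), Ccn1 0.21 against 3.91 (-3.70) and Timp3 -1.21 against 2.20 (-3.40), and Tagln had -2.89 (-4.91 on another probe). Fibronectin Fn1 (1.53) and Timp2 (1.67) were higher. Primitive streak and mesoderm genes had no common direction, 6 of 24 higher and 7 lower, beside 11.5% higher and 18.7% lower over all genes. Meox1, a factor of the somites, had -2.39 in aggregated cells and was at least 10.5-fold higher, Eomes had 0.82 and Gsc -1.03, and Mixl1, Hand1, Myf5 and Myog were dim on both arrays. The muscle genes Tnnt1 (-2.95) and Actc1 (-2.29) were lower.

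Neural crest genes were divided, 6 of 16 higher and 5 lower. Nr2f2 (COUP-TFII), a nuclear receptor that retinoic acid induces, had 2.35 in aggregated against -5.04 in undifferentiated cells (7.39), and Nr2f1 was at least 11.8-fold higher. Tfap2c had 3.10, and Ngfr had 3.38 on the probe used and -0.30 on another. Foxd3, shared by crest and pluripotent cells, had -3.38 against 1.18 (-4.57), and Snai2 (-2.64) and Twist1 (-1.16) were lower. In the glial list 2 of 10 were higher and 5 lower, with Slc1a2 at least 10.3-fold higher and Mag at -1.54; its median of -0.37 turned to 0.02 with normexp background correction. Endothelium and blood genes were lower in 5 of 11 and higher in 1, and those of trophoblast lower in 5 of 9 and higher in 2 (Cdx2 and Tfap2c).

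Cell cycle genes moved about as often as genes in general. Of 38 described, 28 were under 2-fold, 6 were lower and 4 higher, shares near those over all genes (18.7% lower and 11.5% higher), with a median of -0.59 beside -0.27 for all genes described. Mki67 had 5.31 in aggregated against 4.97 in undifferentiated cells (0.34), Pcna 5.46 against 5.69 (-0.23) and Ccnb1 1.51 against 2.22 (-0.72). Ccnd2, a D cyclin of neural progenitors, had 5.36 against 2.21 (3.15). Myc had -1.69 against -0.16 (-1.53), Ccne1 was lower (-1.43), Mycl was higher (2.42), and the mitotic kinase gene Bub1 had -3.84 on the probe used and -0.67 on another. Inhibitors of division were higher in 8 of 17 and lower in 2, with a median of 0.86. The antiproliferative genes Btg2 (3.40; 1.55 on another probe) and Btg1 (3.05), the stress sensor Gadd45g, with 6.47 against 3.67 (2.81), and the CDK inhibitor genes Cdkn2c (2.33) and Cdkn1c (1.65) were among them. Cdkn1b (0.77) and Cdkn1a (0.22) were under 2-fold.

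Among genes well above background on both arrays, the largest increase of all was that of Zfp503, a zinc finger repressor, with 4.02 in aggregated against -5.27 in undifferentiated cells (9.29). Of the 15 largest, 4 are Hox genes, among them Hoxb4, Hoxb7 and Hoxb3. Beside genes named above, the neuropeptide gene Cartpt had 1.05 against -5.32 (6.36) and the matrix gene Emid1 2.35 against -4.0 (6.34). Of the 10 largest increases by bound, 7 are Hox genes, and the others are Nhlh1, the histone methyltransferase gene Prdm8 (at least 301-fold) and the neuronal ubiquitin ligase gene Trim9 (at least 148-fold). Among genes on both arrays the largest decrease was that of Akr1c14, a hydroxysteroid dehydrogenase, with -5.16 in aggregated against 2.31 in undifferentiated cells (-7.47). Cyp2b9 had -6.02 and Cyp2b13 -5.79, and Cyp2b23 was at least 29.5-fold lower; probes of these near-identical cytochrome P450 paralogs may read each other's transcripts. The others were of several kinds. Csta2 (-5.43), the ectoenzyme genes Enpp3 (-5.39) and Enpp2 (-4.98), Slc35d3 (-5.63), the thioredoxin inhibitor Txnip (-5.53; -2.52 on another probe), the receptor genes Gpr37 (-5.37) and Calcr (-4.91; -1.98 on another probe) and endothelin Edn1 (-5.22) were lower. By bound, Trap1a, a tumour rejection antigen gene, was at least 344-fold lower, Il20ra at least 59.5-fold, Cp (ceruloplasmin) at least 41.1-fold, Plekhg6 at least 38.5-fold and the lipid carrier Fabp4 at least 33.2-fold. Gpat3 (at least 27.8-fold) and Ttll6 (at least 25.3-fold) complete them together with Mme and Dppa4.

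The vector line was read beside the AICD line to see where the aggregation step differed. On 11594 genes well above background on all 4 arrays, 1208 were at least 2-fold higher in AICD cells and 1348 in vector cells, and 899 were higher in both, 74.4% of the AICD list and 66.7% of the vector list. At least 2-fold lower were 1953 in AICD and 2532 in vector cells, with 1577 in both (80.7% and 62.3%). Opposite directions past 2-fold were seen for 18 genes higher in AICD and lower in vector cells, and for 16 the other way. The AICD step was above the vector step by at least 4-fold for 150 genes (1.29%) and below it for 101 (0.871%). The median step was -0.23 in AICD cells, over the 11867 genes on both AICD arrays. In vector cells it was -0.31, over the 11594 genes on all 4 arrays. The spike-in probes differed by 0.29 in AICD and -0.15 in vector cells, so spike-in scaling moves every step difference by less than 0.5.

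Genes whose AICD step lay furthest above the vector step included, beside Nr0b1, Fgf5, Pou5f1 and Gdf3, the collagen gene Col8a2, with a step of -1.29 in AICD and -7.55 in vector cells. Its undifferentiated signals were -3.80 in AICD and 2.91 in vector cells, so the gap lay in the starting state. Spon1 (steps of -0.15 and -5.94) and the hormone gene Trh (-1.26 and -6.78) also began lower in AICD cells. Calca, the calcitonin and CGRP gene, had 3.45 aggregated against -1.97 undifferentiated in AICD cells (5.42; 1.94 on another probe) and 0.53 against 0.91 in vector cells (-0.38). Galnt3 had steps of 1.61 and -3.01, and Vstm2l of 3.52 and -1.01. Among genes whose AICD step lay below the vector step, the collagen gene Col3a1 had -3.74 aggregated against -1.58 undifferentiated in AICD cells (-2.16) and 1.1 against -3.61 in vector cells (4.72). Thbs2 had steps of -1.57 in AICD and 3.42 in vector cells and Col26a1 of -1.23 and 3.22. Msx1, a target of BMP in dorsal neural tube and crest, had a step of 2.22 in AICD and of 6.87 in vector cells, from signals of -2.71 and -2.63 in undifferentiated cells, so its gap lay in the aggregated state (-0.50 in AICD and 4.24 in vector cells). Nedd9 (-0.75 and 5.55), Ackr3 (0.05 and 4.45), Rasgrp3 (-4.21 and 0.09), Nrn1 (0.65 and 4.86), Pcdh19 (-0.07 and 4.10) and Palmd (1.73 and 5.87) complete the 10 in AICD and vector cells. For Ackr3 and Rasgrp3 the undifferentiated signals were 1.85 and 2.90 in AICD cells and -4.76 and -3.76 in vector cells. Nedd9 (0.83 in AICD, -4.37 in vector), Pcdh19 (0.77 and -2.32) and Nrn1 (-1.39 and -4.35) also began higher in AICD cells. Their aggregated signals were closer: 0.09 and 1.18 for Nedd9, 0.70 and 1.78 for Pcdh19, and -0.74 and 0.51 for Nrn1. Most of the gap of these genes thus lay in the starting state. Palmd also began higher in AICD cells but ended lower there, at -1.27 against 0.98 in vector cells.

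**Figure D5:**
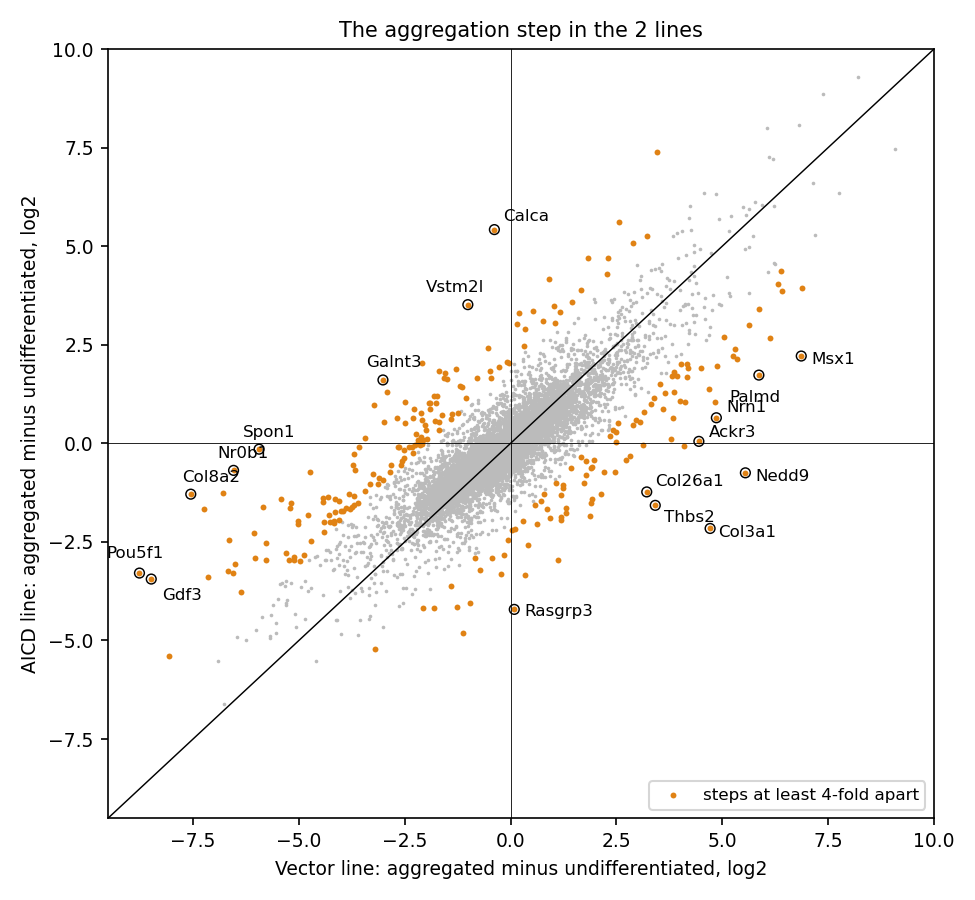
Log2 difference between aggregated and undifferentiated arrays in the AICD line (vertical axis) and the vector line (horizontal axis) for 11594 genes well above background on all 4 arrays; orange points are the 251 genes whose steps are at least 4-fold apart and the diagonal marks equal steps. Pou5f1 and Gdf3 lie at the far left above the diagonal, Calca alone at the top, and Col3a1, Nedd9 and Msx1 to the right below it.

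The medians of several lists also lay apart between the lines. List members were admitted by detection on 1 or both AICD arrays, with no regard to the vector arrays. The vector medians leave out members dim on both vector arrays, so the medians of the lines can rest on different genes. Mesenchyme and matrix genes had a median step of -1.33 in AICD and -0.19 in vector cells, neural crest genes 0.52 and 2.05, and BMP genes 0.38 and 1.08. Neuronal cytoskeleton genes had 2.30 in AICD and 1.72 in vector cells, and neuronal transcription factors 3.13 and 2.45. The 3′ Hox genes had 7.58 and 7.38, but Hox genes of groups 6 to 13 had 2.32 in AICD and 4.31 in vector cells. Genes of retinoid synthesis, transport and breakdown had 1.79 and 2.72. Gene by gene, over members well above background on all 4 arrays, the median of AICD step minus vector step was nearer 0 for most of these: -0.56 for mesenchyme and matrix (26 genes), -0.84 for neural crest (11), -0.40 for BMP (20), 0.24 for neuronal transcription factors (16) and -0.27 for the 3′ Hox genes (5), the last opposite in sign to the gap between the medians. For neuronal cytoskeleton genes it was 0.82 (24), for Hox genes of groups 6 to 13 -1.37 (6) and for the retinoid list -0.91 (7).

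App and the proteins that process or bind its tail were read because AICD is a fragment of App. App had 0.93 in aggregated against -0.21 in undifferentiated AICD cells (1.14; 1.88 in vector cells), and no source used here says whether its probe reads the transgene. Its relative Aplp1 had 1.92 against 0.01 (1.92), and Aplp2 4.44 against 4.66 (-0.22). The adaptor genes Apba2, with 0.03 against -4.52 (4.55), Apbb2 (1.46) and Apbb1, which encodes Fe65 (1.16), were higher, and so was Aph1b (1.60; 0.22 on another probe). Of the secretases, Bace1 (0.37), Adam17 (-0.19), Ncstn (0.08), Psenen (-0.09) and Psen2 (-0.86) were under 2-fold. Altogether 6 of 17 described were at least 2-fold higher and 0 lower.

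Of 19 genes that earlier work proposed as AICD targets, 5 were at least 2-fold higher in aggregated AICD cells and 6 lower. Over all genes described the shares were 11.5% higher and 18.7% lower. Mme, the amyloid-degrading protease neprilysin, had -0.53 in undifferentiated cells and was dim in aggregated cells, at least 34.7-fold lower (-2.83 in vector cells). Igfbp3 had -3.41 against 0.41 (-3.82; -2.32 in vector cells), Tpm1 2.03 against 4.67 (-2.64; -1.68), Egfr -0.86 against 1.48 (-2.34; -1.64) and Trp53 1.1 against 3.31 (-2.21; -2.07), each with the vector step last. These 5 were lower in both lines. Cd82 had -0.88 against -3.13 (2.26; 4.03 in vector cells) and Ptch1 -3.80 against -5.22 (1.42; 0.50). Stub1 (0.10), Lrp1 (0.22), Kat5 (0.33), Cyp46a1 (0.37) and Gsk3b (0.89) were under 2-fold. Slc17a6, described above, was higher in AICD cells (4.45) and at least 4.47-fold lower in vector cells.

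After replating for 2 days the third AICD array gives the next level of these genes, as a description, since it shares the aggregated array with the step above. Of the 1529 genes higher on aggregation, 295 were at least 2-fold higher again and 256 at least 2-fold lower on the differentiated array, and of the 2484 lower ones 245 were at least 2-fold higher and 57 lower again. Retinoid genes were among those that came down: Cyp26b1 had -3.26, Cyp26a1 -2.69 and Rarb -1.97 in differentiated cells. Hoxb6 had 3.54 there. Among neuronal genes Dcx had 4.89, Mapt 4.08, Chgb 4.95 and Slc17a6 2.14 in differentiated AICD cells, above their aggregated signals. Nhlh1 (0.87), Prdm8 (0.87) and Trim9 (0.78) lay below their aggregated signals of 1.57, 2.77 and 1.46. Pou5f1 had 3.25 there, beside 3.19 in aggregated and 6.48 in undifferentiated cells, and Lefty1 had -3.49.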

How the data were processed

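RNA of mouse P19 cells was read on 6 Agilent single-colour (Cy3) arrays, 1 per line and state. Per the file headers, the authors' deposited intensity values are the processed signals that Agilent Feature Extraction 10.1.1.1 made from each scan by subtracting background, with no scaling between arrays. The authors' deposited normalized values, here named score because their scale is unstated, were an alternative, matched by probe: read as log2 signals relative to each probe's median over the arrays, with negative ones stored as the reciprocal of their size, 99.8% of 34152 values matched the scanner output within 0.05, and 31069 of 41252 probes are blank on both AICD arrays.

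Processed signals of a probe's spots were averaged, divided by the array's 75th percentile over non-control spots, and log2 was taken. Of 41174 probes, 24844 received a symbol through RefSeq accessions, 16330 did not, and 27 had no value on at least 1 array. Genes were described when well above background on 1 or both AICD arrays; 4659 genes had several probes, and each was read from the probe brightest on average across the 6 arrays. A bound sets the bright array over the lowest signal well above background on the dim array (-5.74 aggregated, -5.78 undifferentiated, log2), or over the dim probe's own signal where that is higher. No test was run, since each group is 1 array. The calculation of the step was checked on simulated data whose only noise was the scatter of repeat spots. That check does not cover the spread between cultures or slides. The 42 lists (989 genes) and their members were chosen with earlier results of these data known. Named are the 15 largest differences and 10 largest bounds per direction, list members, and the 10 per direction whose steps differ most from the vector line; clone-style symbols are not named, and some genes are not reported here. Alternatives were normexp background correction (on median spot signals in place of the mean signals first planned; offset 50), quantile and median scaling, other probe and detection rules, the deposited values and, chosen after seeing the data, E1A spike-in scaling. Versions were R 4.3.3, limma 3.58.1, Python 3.11.15, pandas 2.3.3, numpy 2.4.6 and matplotlib 3.10.9. Promoters are RefSeq's, GRCm38.p6.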

Additional observations from a re-analysis of the deposited data

Results flagged for a closer look

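For 14 genes of the lists or of the naming rule the aggregation step was at least 2-fold in opposite directions in the AICD and vector lines; each step rests on 1 array a side, and the difference was not tested. Higher in aggregated AICD cells and lower in aggregated vector cells were Galnt3 (1.61 in AICD, -3.01 in vector), Pou3f1, a POU factor of neural cells (1.62 and -1.50), the semaphorin Sema6a (1.79 and -1.56; -0.56 on another probe in AICD) and Vstm2l (3.52 and -1.01). Slc17a6 (4.45 in AICD) was at least 4.47-fold lower in vector cells, where its aggregated array was dim, and the Wnt-responsive factor Sp8 (3.09 in AICD) at least 2.77-fold lower. Lower in AICD and higher in vector cells were Bmp4 (-1.30 in AICD, 1.20 in vector), Col26a1 (-1.23 and 3.22), Col3a1 (-2.16 and 4.72), Thbs1 (-2.97 and 1.12; -0.24 on another probe in AICD) and Thbs2 (-1.57 and 3.42). By bound, Cp fell at least 41.1-fold in AICD cells (1.71 in vector), Kcna1 at least 2.44-fold (1.42) and Pdgfrb at least 2.73-fold (2.91).

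Several of the 14 began apart: in undifferentiated cells Col26a1 had 1.70 in AICD and -2.29 in vector cells, Galnt3 -3.31 and 1.59, Cp -0.36 and -4.50, Thbs2 -0.75 and -4.13. Pou3f1 began closer (4.27 in AICD, 5.28 in vector) and ended at 5.89 in AICD and 3.79 in vector cells.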

How the results depend on the processing

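Single arrays on confounded slides limit every value, and dim signals limit the sizes of low genes. Against 1529 genes at least 2-fold higher in aggregated AICD cells, the counts over all genes ran from 1075 (normexp) to 1784 (no filter on dim probes), with 1119 under spike-in scaling, a setting chosen after seeing the data. Against 2484 lower, they ran from 1359 (normexp) to 3811 (spike-in scaling). The steps of the lines were at least 4-fold apart for 251 genes, and for 117 with normexp and 863 with no filter. The deposited values, blank where small, give 343 genes on both AICD arrays, 125 higher and 164 lower, and 36 of 150 with steps at least 4-fold apart. The cause of these shifts was not tested, beyond the smaller number of genes in the deposited values. Where the detection filter or probe choice changed, the probe read for a gene changed, and 5 genes reversed: Plxna4 (-0.051) and Scrt1 (-0.23) with detection on both arrays or the highest probe of the AICD arrays, Scn2a (-1.45) and Tfap2b (-0.31) with detection on both arrays, and Pou4f1 (0.84) with the median over probes. Of 475 named or listed genes past 2-fold, 361 (normexp) to 475 (no filter) kept side and direction under the alternatives that cover all of them. Detection on both arrays kept 382 of 387, and the deposited values 74 of 74. With no filter or with detection on both arrays, a gene read from the same probe keeps its call by construction. The deposited values come from the same scanner signals and are blank where small, so their count is no separate check. Medians of 6 of 42 lists changed sign under another scaling: DNA methylation, glia, glycolysis, imprinted genes, lysosome and ribosomal proteins. No replicate could be left out, and slide could not be a block, since slide and state cannot be told apart. No paired analysis was possible because each group holds 1 array.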

Other observations

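Of 23 described chaperone and stress genes of the endoplasmic reticulum, 10 were at least 2-fold lower in aggregated AICD cells, 12 under 2-fold and 1 higher, with a median of -0.64 (-0.40 with quantile normalization) beside -0.27 for all genes described. Hspa5, which encodes BiP, had 5.09 in aggregated against 6.30 in undifferentiated cells (-1.21), Manf had 3.51 against 4.88 (-1.37) and Creld2 4.35 against 5.70 (-1.35). Ddit3 (CHOP), a stress factor of the same response, went the other way, with 1.06 against -1.17 (2.23). Cholesterol genes had a median of 0.53, with 5 of 26 higher and 0 lower: Hmgcs1, an early enzyme of the pathway, was among the 5 (1.73), and Fasn, the fatty acid synthase, had -0.22. Of 30 glycolysis and hypoxia genes, 25 were under 2-fold and 5 higher, beside 11.5% higher over all genes: the hypoxia-responsive Ndrg1 (3.88), Ddit4 (3.0), Vegfa (1.71; 1.16 to 2.29 over its probes) and Egln1 (1.45) were among the 5, while Car9 (-0.63), Adm (-0.76) and Bnip3 (-0.16), which hypoxia also induces, were under 2-fold. Interferon and antigen presentation genes were lower in 7 of 17 and higher in 1, with Bst2 at -4.19 aggregated against -1.28 undifferentiated (-2.91), Ifitm3 at -1.75 and B2m at -1.04.

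Imprinted genes had no common direction, 4 of 21 higher and 5 lower, beside 11.5% higher and 18.7% lower over all genes. Peg12 had 4.14 in aggregated against 0.95 in undifferentiated cells (3.19), and Cdkn1c was higher (1.65), while Grb10 (-2.87; -1.65 on another probe), Slc38a4 (-2.30), Snrpn (-2.12) and Phlda2 (-2.0) were lower. Of the p53 and apoptosis genes 7 of 23 were lower and 2 higher, beside 18.7% lower and 11.5% higher over all genes. Phlda3 had -0.50 aggregated against 2.42 undifferentiated (-2.92). In the IGF axis Igfbp5 had 5.70 on the probe used and 0.68 on another, and Igfbp7 (-2.90) was lower. Germline genes were mostly dim on both arrays; of 9 described 5 were lower, Tex19.1 by at least 18.4-fold. Lysosome genes were under 2-fold in 23 of 29, with Ctsc (cathepsin C) at -0.68 aggregated against 1.85 undifferentiated (-2.53). All 24 described ribosomal protein genes were under 2-fold, with Rps19 at -0.60, and of 15 reference genes Hprt (-1.19) and B2m were at least 2-fold lower and 0 higher.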
